A study of Mus musculus with 3 samples.

Results

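A set of 42 genes of peptide signalling was followed across hippocampal RNA-seq libraries of WT, PS19 and PS19 Zbp1+/- mice, each gene found by its symbol in the deposited table of 54532 genes. The set holds 17 neuropeptide precursors, 6 granins, 4 genes of precursor processing and 15 peptide receptors, and each symbol matched 1 row. All animals were 10 months old and on a C57BL/6 background. WT carried neither change, PS19 carried the human tau transgene that the mouse Prnp promoter drives, and PS19 Zbp1+/- carried that transgene with 1 allele of Zbp1 lost, Zbp1 being a sensor of Z-form nucleic acid. The labels name no group of Zbp1+/- mice without the transgene, and they state neither sex nor whether animals were pooled.

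Neuropeptides are made as long precursors, packed into dense-core vesicles with the acidic granin proteins, cut at pairs of basic residues by the convertases and trimmed by carboxypeptidase E. Released peptides act on G protein-coupled receptors, more slowly and over longer distances than the classical transmitters. In the hippocampus somatostatin, neuropeptide Y, cholecystokinin and vasoactive intestinal peptide mark classes of GABAergic interneurons, while dynorphin and enkephalin are found in the mossy fibres and perforant path.

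With 1 library per genotype there is no replicate check, and no p-value is given. Where 3 values stand together they follow the order WT, PS19, PS19 Zbp1+/-. Levels are FPKM, which divides reads by gene length and by the library size that the deposited values imply. Each ratio compares reads per library size between 2 libraries, and its 95% interval (exact, Clopper-Pearson) holds counting error alone. Spread between animals and between library preparations is left out of it. PCR copies cannot be told from separate molecules here, so the interval may be too narrow even for counting error. The FPKM values could be turned back into whole reads, 16746085, 16400328 and 17109734 per library. The implied library sizes, 17253479, 17287957 and 15826984, differ from these totals, and every ratio uses the implied sizes. For PS19 Zbp1+/- the implied size is below the read total, and for WT and PS19 it is above. Ratios of PS19 Zbp1+/- over either are therefore larger than they would be with read totals. Zbp1 had 5, 91 and 0 reads. Xist had 11062, 13350 and 0 reads, and the Y-linked Ddx3y had 0, 0 and 711, so sex and genotype cannot be told apart in either comparison of PS19 Zbp1+/-. That library also held fewer weakly expressed genes: of 357 genes with 8 to 12 reads in both other libraries, 57 had none there, against 1 of 244 for PS19 and 5 of 234 for WT.

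Most of the peptide genes were lower in the PS19 library than in the WT library. Most were higher in the PS19 Zbp1+/- library than in the PS19 library, and in that second comparison the receptors had the largest median difference. A gene entered a comparison when its FPKM reached 1 in either library. It was called higher or lower at a difference of log2(FPKM + 1) that corresponds to 1.5-fold on that scale. Between PS19 and WT 36 of the 42 genes entered. Of these, 7 were called lower and 0 higher, where 2.71% of all 12703 protein-coding genes tested were called lower and 6.34% higher. Counting any amount, 32 of the 36 were lower, against 53.7% of all genes, and their median difference was -0.35 against -0.03 for all genes.

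Between PS19 Zbp1+/- and PS19, 14 of 37 genes were called higher and 0 lower, with 9.37% of 12772 genes higher and 12.1% lower. The median difference of the 37 was 0.43, against 0.04 for all genes, and 31 lay above 0. Between PS19 Zbp1+/- and WT, 6 of 37 were called higher, where the share over 12436 genes was 6.71%, and 2 lower, where it was 7.12%. By any amount 22 were higher (51.0% of all genes) and 15 lower (49.0%). Both comparisons of PS19 use the same PS19 library, so their opposite directions are not independent of each other. At 2-fold, 1 gene was lower in PS19 than in WT (0.291% of all genes) and 0 higher (2.2%). Against PS19, 7 were higher in PS19 Zbp1+/- at that threshold (2.0%) and 0 lower (5.16%), and against WT 3 were higher (1.07%) and 0 lower (2.28%).

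The scaling of the libraries bears on these counts. Rescaling every library to the same summed FPKM (TPM) moved the median of all genes between PS19 Zbp1+/- and PS19 from 0.04 to -0.21, and scaling by total reads moved it to -0.12. Under TPM, 8 of the 37 peptide genes were called higher (3.65% of all genes) and 1 lower (20.6%) in that comparison, and between PS19 and WT 5 of 36 were called lower (1.43%). No called difference of a single gene changed sign under these scalings.

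**Figure D1:**
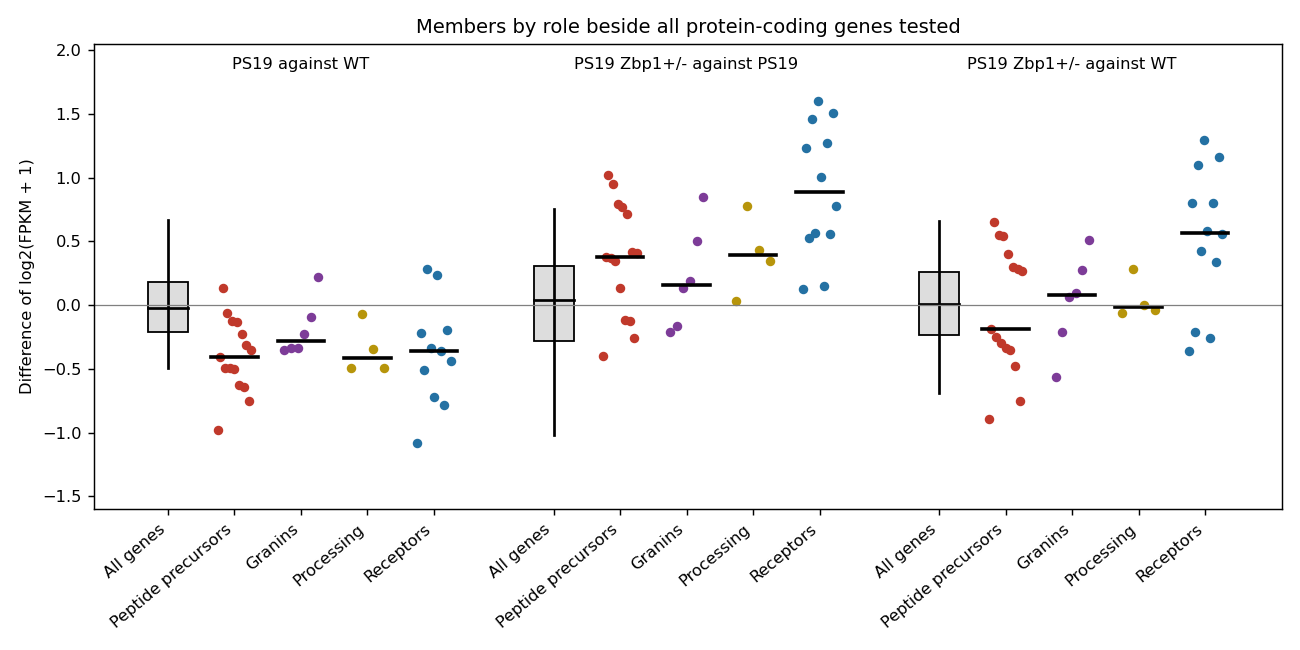
Differences of log2(FPKM + 1) for the genes that entered each comparison, by role, beside all protein-coding genes tested (box, middle 50%; whiskers, 5th to 95th percentile; line, median). Points are single genes and thick bars their medians. All 12 receptors tested lie above 0 in PS19 Zbp1+/- against PS19, with a median of 0.89. Of the 12, 10 do so under TPM and 11 under scaling by total reads. The 12 include Tacr3, which entered only through PS19 Zbp1+/-.

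PS19 was the lowest of the 3 libraries for 28 of the 37 genes that reached an FPKM of 1 in any library (75.7%), against 37.7% of all genes, and for 21 of them under TPM, against 18.3%. WT was the highest library for 15 of them, against 29.3% of all genes, and PS19 for Scg3 alone, against 30.6%. PS19 Zbp1+/- was the highest for 21 of the 37 (56.8%), against 40.1% of all genes. The remaining 5 genes, Trh, Gal, Oprk1, Oprm1 and Tacr1, stayed under an FPKM of 1 in every library and entered no count. Tacr3 entered only through PS19 Zbp1+/-, where it was high, so its calls there follow in part from the filter. Those calls are included in the counts given for PS19 Zbp1+/-. Bulk RNA cannot tell fewer cells of a type from less RNA per cell, and this holds for every level given here.

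**Figure D2:**
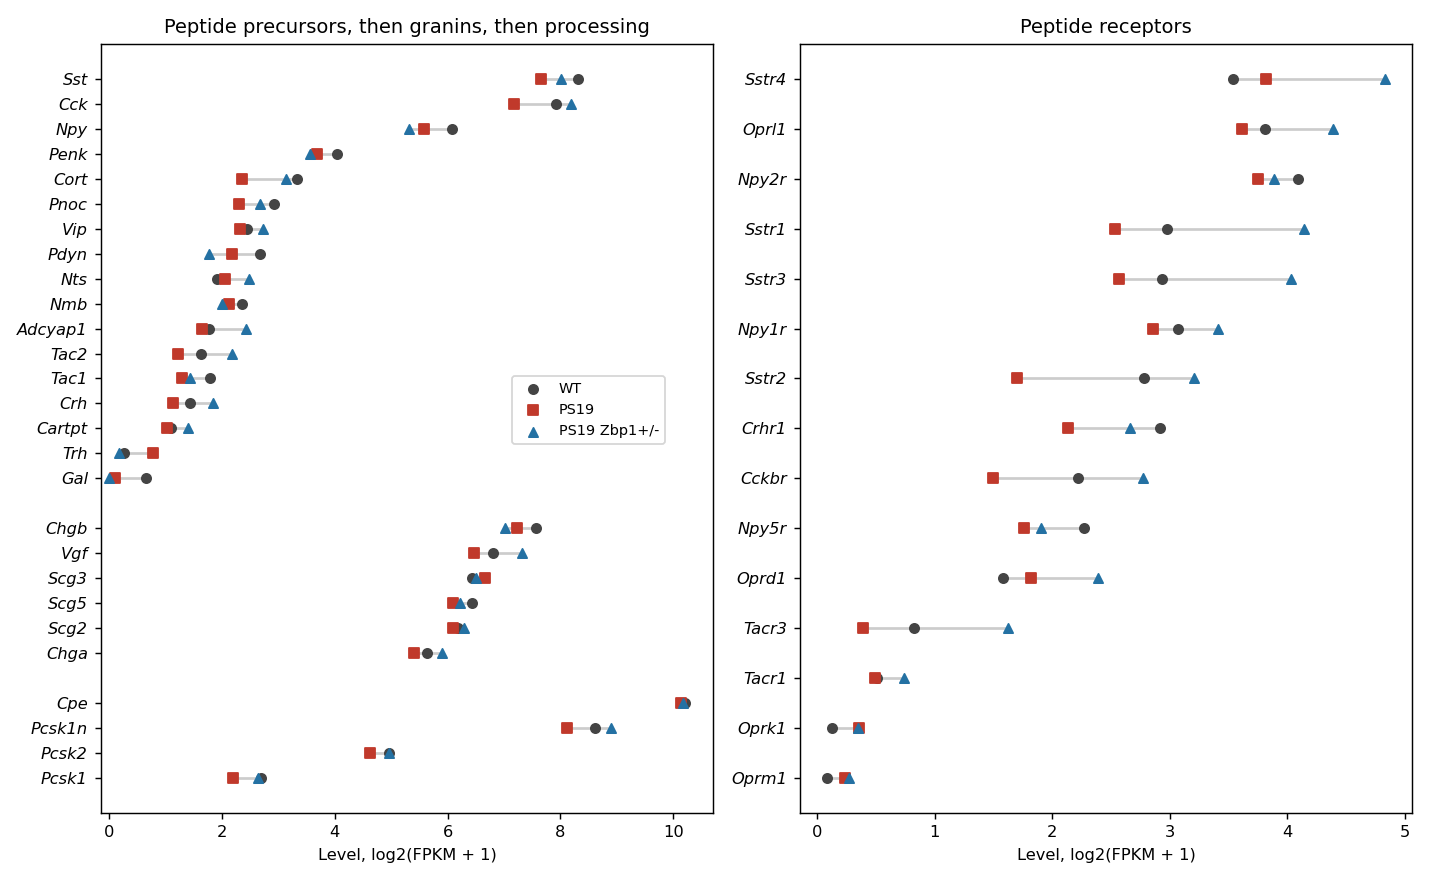
Level of each of the 42 genes as log2(FPKM + 1) in the WT, PS19 and PS19 Zbp1+/- libraries (circle, square, triangle; 1 library each), ordered by mean level within each role. The grey line spans the 3 values. The PS19 square is leftmost for most genes, and the triangle lies far to the right for Sstr1, Sstr3 and Sstr4.

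Sst, which encodes somatostatin, the inhibitory peptide of dendrite-targeting interneurons, was the most abundant precursor in WT and PS19. Its FPKM was 315, 201 and 257, from 3921, 2510 and 2929 reads. The WT library was highest and PS19 lowest. The ratio of PS19 over WT was 0.639 (0.607 to 0.672), called lower, and that of PS19 Zbp1+/- over PS19 was 1.27, which fell short of a call. Cort, the cortistatin precursor, whose peptide resembles somatostatin and binds the same receptors, had FPKM values of 9.07, 4.10 and 7.84 from 106, 48 and 84 reads. Its ratio was 0.452 (0.314 to 0.641) for PS19 over WT, the lowest among the precursors that entered, and 1.91 (1.32 to 2.79) for PS19 Zbp1+/- over PS19, a call that ended under TPM, at 0.55, and with the GC and length correction, at 0.58. After subtracting the median of genes of like GC content and length, described with the GC plot, the Sst difference between PS19 and WT moved from -0.64 to -0.47 and lost its call. Under TPM it was -0.52, likewise without a call.

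Cck, the cholecystokinin precursor of basket interneurons and of many pyramidal cells, had FPKM values of 241, 143 and 292 from 5437, 3230 and 6022 reads. It was lowest in PS19 and highest in PS19 Zbp1+/-. PS19 over WT was 0.593 (0.567 to 0.619), and PS19 Zbp1+/- over PS19 was 2.04 (1.95 to 2.13). On the log2(FPKM + 1) scale as deposited, Cck was the only precursor called at 2-fold in any comparison. By read ratio alone, and among the precursors that entered, Tac2, Crh and Adcyap1 were also past 2-fold in PS19 Zbp1+/- over PS19. So were Cort in PS19 over WT and Pdyn in PS19 Zbp1+/- over WT. The Cck difference between PS19 Zbp1+/- and PS19 was under 2-fold with TPM (0.74) and with scaling by total reads (0.83). In PS19 Zbp1+/- Cck passed Sst as the most abundant precursor, at 45.5% of the summed FPKM of the 17 against 40.05% for Sst. Corrected for GC content and length, the Cck difference between PS19 and WT was -0.58, just short of a call. That between PS19 Zbp1+/- and PS19 was 0.91, also under 2-fold.

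Sst is a standard example of a gene driven through the cyclic AMP response element, an element that links second-messenger signals and neuronal activity to transcription through the factor CREB. The 7 genes called lower in PS19 than in WT were Sst, Cort, Cck, Pnoc, Sstr2, Cckbr and Crhr1. Of these, Sst, Cort, Cck and Sstr2 hold the palindrome of this element, TGACGTCA, or its shorter form, TGACG or CGTCA, in the RefSeq promoter window. Cckbr and Crhr1 hold neither, and Pnoc had no entry. Over the whole set, 21 of the 35 genes with a window hold a short form, so most genes of the set carry it. The 4 carriers among the 7 are shown so that the copies and their surroundings can be compared. They were chosen after their values and matches were seen. Each line gives the 150 bases before the RefSeq start site, 5′ to 3′ on the gene's strand in build GRCm38.p6, with the element in capitals. Positions count back from -1, the last base before the start. In the gene model of the deposited table, Sst starts farther upstream than in RefSeq.
Sst, chr16:23890845-23890994, minus strand: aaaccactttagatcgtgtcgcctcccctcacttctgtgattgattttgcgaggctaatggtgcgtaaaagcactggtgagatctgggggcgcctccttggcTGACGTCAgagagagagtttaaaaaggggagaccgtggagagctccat
Sstr2, chr11:113619177-113619326, plus strand: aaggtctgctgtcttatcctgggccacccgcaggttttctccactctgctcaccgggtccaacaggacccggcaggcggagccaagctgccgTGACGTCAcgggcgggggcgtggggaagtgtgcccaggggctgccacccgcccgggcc
Cck, chr9:121495695-121495844, minus strand: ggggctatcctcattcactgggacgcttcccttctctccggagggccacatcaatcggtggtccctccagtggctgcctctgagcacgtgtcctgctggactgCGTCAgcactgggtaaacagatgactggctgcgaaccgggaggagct
Cort, chr4:149126764-149126913, minus strand: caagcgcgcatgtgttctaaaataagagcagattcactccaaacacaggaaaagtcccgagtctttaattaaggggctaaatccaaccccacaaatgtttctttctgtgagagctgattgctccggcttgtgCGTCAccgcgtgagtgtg

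The palindrome begins at -48 in Sst and at -58 in Sstr2, and CGTCA begins at -47 in Cck and at -18 in Cort. The windows searched ran from 250 bases before to 50 bases after each RefSeq start, on both strands, and a palindrome also counts as a short form. Other motifs searched were GGGCGG (in 16 of 42 windows, 35.7% of all windows), TATAAA (5 of 42, 13.6%), TTCAGCACC (1 of 42, 0.371%) and CAGATGG (3 of 42, 5.3%), each also as its reverse complement. Of the 42 genes 35 had at least 1 window, 42 windows in all. The palindrome was in 6 windows, those of Sst, Cartpt, Scg2, Chgb, Pcsk1 and Sstr2, where 1.79% of all 32851 windows hold it. A short form was in 22 of the 42 windows, where 20.8% of all windows hold one. Carriers of a short form were not restricted to the genes that were low in PS19. Nts had a PS19 over WT ratio of 1.13 (0.788 to 1.63) and Scg3 of 1.17 (1.12 to 1.22). Among genes with the palindrome, the PS19 over WT ratio ran from 0.382 for Sstr2 to 0.936 for Scg2, all below 1. Of the whole set, 32 of the 36 genes that entered were lower in PS19 by any amount. The element was picked for display after these shares were seen. A match of letters does not show that a factor binds there.

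Pnoc, the precursor of nociceptin, had FPKM values of 6.58, 3.92 and 5.39 from 245, 146 and 184 reads, with a PS19 over WT ratio of 0.595 (0.481 to 0.733). This gene was lowest in PS19, and its call ended under TPM, at -0.52, and with the GC and length correction, at -0.45. Npy, which encodes the inhibitory peptide neuropeptide Y, was lowest in PS19 Zbp1+/-. Its FPKM was 66.6, 46.8 and 39.1, from 650, 458 and 350 reads, and the ratio of PS19 Zbp1+/- over WT was 0.587 (0.514 to 0.670), called lower.

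The opioid precursors had the same order as Npy. Pdyn, the dynorphin precursor of the dentate granule cells, had FPKM values of 5.38, 3.53 and 2.43 from 268, 176 and 111 reads. PS19 Zbp1+/- was at 0.452 (0.359 to 0.565) of WT, the lowest ratio of any precursor called in that comparison. Penk, the enkephalin precursor, had FPKM values of 15.4, 11.9 and 10.8 and reached no call. Of 11 tested markers of dentate granule cells, the cells that express Pdyn, 3 were called lower (2.71% of all genes) and 0 higher (6.34%) in PS19 against WT (median -0.42). In PS19 Zbp1+/- against PS19, 3 were called lower (12.1%) and 2 higher (9.37%), with a median of -0.31. In PS19 Zbp1+/- against WT, 5 were called lower (7.12%) and 1 higher (6.71%), with a median of -0.44. Their summed FPKM was 159.7, 112 and 126. Their part in the Pdyn values was not tested.

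Adcyap1, Tac2 and Crh were called higher in PS19 Zbp1+/- than in PS19, and of these only Adcyap1 was also called higher than in WT. Adcyap1, which encodes PACAP, a peptide that raises cyclic AMP, had FPKM values of 2.41, 2.13 and 4.36 from 87, 77 and 144 reads. Its ratio was 2.04 (1.54 to 2.73) over PS19 and 1.804 (1.37 to 2.38) over WT. The call over PS19 was lost under TPM, at 0.56, and that over WT under TPM, at 0.52, and under scaling by total reads, at 0.53. Tac2, the neurokinin B precursor, had FPKM values of 2.10, 1.34 and 3.53 from 50, 32 and 77 reads, with a ratio of 2.63 (1.72 to 4.10) for PS19 Zbp1+/- over PS19. Crh, the stress peptide corticotropin-releasing hormone, had 39, 27 and 54 reads and a ratio of 2.19 (1.35 to 3.61) in the same comparison, with no call under TPM (0.54).

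The other precursors reached no call. Tac1, the substance P precursor, had 143, 85 and 91 reads, and its read ratio of 0.593 (0.448 to 0.781) for PS19 over WT shrank to -0.49 on the log2(FPKM + 1) scale. Vip had FPKM values of 4.45, 3.98 and 5.63, and Nts, the neurotensin precursor, 2.79, 3.15 and 4.56. Cartpt stood between 1.04 and 1.63 and Nmb, the neuromedin B precursor, between 3.03 and 4.09 in FPKM. Nmb shares 163 exon bases with Sec11a on the same strand, so its values are uncertain. Trh, which encodes thyrotropin-releasing hormone, had 5, 17 and 3 reads, and Gal, which encodes galanin, had 7, 1 and 0 reads. For Gal in PS19 Zbp1+/- the depth and the loss of weak genes in that library allow no statement on absence.

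**Figure D3:**
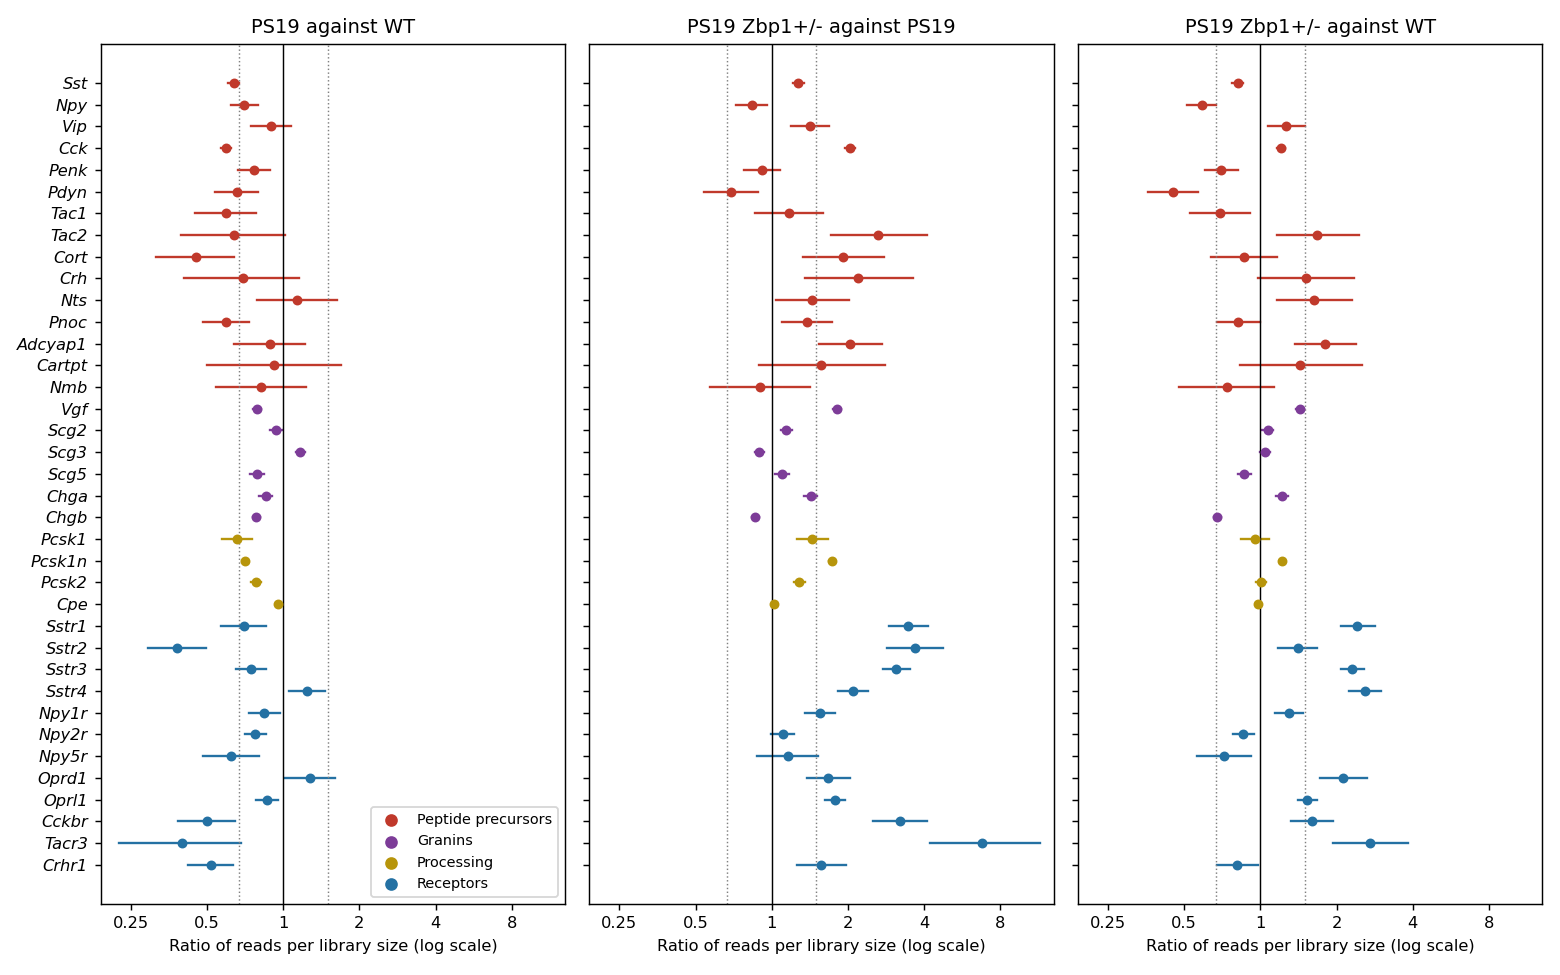
Ratio of reads per library size for the 37 genes that reached an FPKM of 1 in any library, in 3 comparisons, on a log axis, with exact 95% intervals of counting error. Dotted lines mark 1.5-fold either way and colours the role. In PS19 Zbp1+/- against PS19 the ratios of Sstr1, Sstr2, Sstr3, Cckbr and Tacr3 lie above 3.

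The granins, which help to form dense-core vesicles and are themselves cut into peptides, had 0 of 6 called between PS19 and WT, with a median of -0.28. Chgb, chromogranin B, was the most abundant in WT, with FPKM values of 190, 149 and 128 from 8972, 7053 and 5567 reads. It was highest in WT and lowest in PS19 Zbp1+/-, at 0.676 (0.654 to 0.700) of WT, a difference of -0.56 that fell just short of a call as deposited and passed it under TPM, at -0.72, under scaling by total reads, at -0.71, and with the GC and length correction, at -0.60. Vgf, a granin induced by neurotrophins and activity, followed another order, with FPKM values of 111, 87.8 and 159 from 5709, 4515 and 7498 reads. As deposited it was the one granin called, at 1.81 (1.75 to 1.88) in PS19 Zbp1+/- over PS19. The Vgf call was lost under TPM, at 0.57, and after the GC and length correction, at 0.53, and its transcript had the highest GC content of the 42, 64.1%. In PS19 Zbp1+/- Vgf made up 27.1% of the summed granin FPKM and Chgb 21.9%, against 18.8% and 32.0% in WT.

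Scg2, secretogranin II, the precursor of secretoneurin, was nearly level, at 72.0, 67.4 and 76.9. Scg3, which tethers granins to the vesicle membrane, was the one granin above WT in PS19 as deposited (Scg2 joined it under TPM, at 0.03), with FPKM values of 85.8, 100 and 89.6 and a ratio of 1.17 (1.12 to 1.22). Scg5, the 7B2 chaperone of the convertase Pcsk2, had 85.5, 67.4 and 73.9, and Chga, chromogranin A, 48.4, 41.3 and 58.9. The granin median between PS19 Zbp1+/- and PS19 was 0.16 as deposited, but -0.12 under TPM and -0.03 under scaling by total reads, so the direction of the group depends on the scaling.

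Among the processing genes Cpe, carboxypeptidase E, was by far the most abundant of all 42 and the most even, with FPKM values of 1177, 1123 and 1149 from 52964, 50647 and 47452 reads. Its highest library was 1.05-fold above its lowest. Pcsk1n encodes proSAAS, an inhibitor of the convertase Pcsk1. It had FPKM values of 390, 276 and 475 from 14745, 10465 and 16502 reads, with ratios of 0.708 (0.691 to 0.726) for PS19 over WT and 1.72 (1.68 to 1.76) for PS19 Zbp1+/- over PS19. The second was the one call in this role and was lost under TPM, at 0.50. The convertases were lowest in PS19 as well. Pcsk1 had FPKM values of 5.45, 3.59 and 5.20, and Pcsk2 30.2, 23.6 and 30.3, so that PS19 Zbp1+/- stood near WT for both. The exons of Pcsk2 overlap those of 2 antisense genes with at most 45 reads, and those of Pcsk1n an antisense gene with 0 reads.

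Between PS19 and WT the receptor median was -0.36, with -0.405 for the precursors, -0.28 for the granins and -0.42 for the processing genes. Between PS19 Zbp1+/- and PS19 the receptors had the largest median difference of any role. Of the 12 that entered, 7 were called higher in PS19 Zbp1+/- than in PS19 (9.37% of all genes), and 6 of them at 2-fold (2.0%). None was called lower (12.1%). The median was 0.89 as deposited, 0.62 under TPM and 0.75 after the GC and length correction. The 12, the 7 and the 6 all include Tacr3, which entered only through PS19 Zbp1+/-, where it was high. The somatostatin receptors Sstr1 to Sstr4 were all among the 7. These receptors couple to inhibitory G proteins and open potassium channels in pyramidal cells, and Sstr3 sits in the primary cilium of neurons. Summed over Sstr1 to Sstr4, the FPKM was 29.98, 25.1 and 67.6, so that PS19 Zbp1+/- stood 2.69-fold above PS19 and 2.25-fold above WT. Sst, which encodes the ligand, was highest in WT.

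Sstr1 (chromosome 12, 58211772 to 58214444) had FPKM values of 6.88, 4.81 and 16.6 from 243, 170 and 539 reads. PS19 Zbp1+/- was 3.46-fold above PS19 (2.91 to 4.14) and 2.42-fold above WT (2.07 to 2.83). Sstr3 (chromosome 15, 78537008 to 78544685) was close to it, with FPKM values of 6.64, 4.94 and 15.3 from 495, 369 and 1049 reads and ratios of 3.10 (2.75 to 3.51) and 2.31 (2.07 to 2.58). Both were lowest in PS19, without a call against WT.

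Sstr2 (chromosome 11, 113619342 to 113626028) had FPKM values of 5.87, 2.24 and 8.23 from 217, 83 and 279 reads. Its read ratio of PS19 over WT was 0.382 (0.293 to 0.494), and on the log2(FPKM + 1) scale it was the one gene of the set called lower at 2-fold, at -1.08. By read ratio alone, Cort, Cckbr and the unfiltered Tacr3 and Gal also lay below 0.5. Gal rests on 1 read in PS19 against 7 in WT, and its interval, 0.003 to 1.11, holds 1. For Sstr2, PS19 Zbp1+/- was 3.67-fold above PS19 (2.86 to 4.75) and 1.40-fold above WT, without a call there. Sstr4 (chromosome 2, 148395344 to 148396767) was the most abundant of the 4 and differed in order, since WT was its lowest library. It had FPKM values of 10.6, 13.1 and 27.4 from 260, 323 and 617 reads, and PS19 Zbp1+/- was 2.09-fold above PS19 (1.82 to 2.40) and 2.59-fold above WT (2.23 to 3.002). Under TPM, scaling by total reads and the GC and length correction, the Sstr1 to Sstr4 differences between PS19 Zbp1+/- and PS19 lay between 0.74 and 1.46, and every one was past 1.5-fold.

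Cckbr, the main cholecystokinin receptor of the forebrain, had the same order of libraries as its ligand gene Cck. Its FPKM was 3.65, 1.82 and 5.83, from 180, 90 and 264 reads, with ratios of 0.499 (0.383 to 0.646) for PS19 over WT and 3.20 (2.51 to 4.12) for PS19 Zbp1+/- over PS19. Crhr1, a receptor of corticotropin-releasing hormone, was called lower in PS19 than in WT as well, at 0.517 (0.420 to 0.634), with FPKM values of 6.55, 3.39 and 5.32 from 278, 144 and 207 reads. Tacr3, the receptor of neurokinin B, was weak, with 50, 20 and 124 reads, and PS19 Zbp1+/- was 6.77-fold above PS19 (4.20 to 11.5). Its ligand gene Tac2 had the same order of libraries. Other pairs did not: WT was the highest library for Crhr1 but PS19 Zbp1+/- for Crh, and the reverse held for the nociceptin receptor Oprl1 and Pnoc. PS19 was the lowest library for 28 of the 37 genes and PS19 Zbp1+/- the highest for 21, so shared orders were common in the set. Tacr1, the substance P receptor, had 47, 46 and 69 reads and did not reach an FPKM of 1.

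Of the opioid receptor family, Oprl1, the nociceptin receptor, was the most abundant, with FPKM values of 13.02, 11.3 and 19.98 from 843, 730 and 1187 reads. PS19 Zbp1+/- was 1.78-fold above PS19 (1.62 to 1.95), a call lost under TPM, at 0.51. Oprd1, the delta receptor, had 138, 176 and 269 reads and was 2.13-fold higher in PS19 Zbp1+/- than in WT (1.72 to 2.63). The kappa receptor Oprk1 and the mu receptor Oprm1 were at an FPKM of at most 0.278, with 14, 44 and 39 reads and 8, 25 and 26 reads. Of the 8037 bases of Oprm1, 96 overlap exons of Ipcef1 on the other strand, which had 544, 255 and 500 reads. Without stated strandedness, reads within those 96 bases cannot be told apart. The receptors of neuropeptide Y reached no call. Npy1r had FPKM values of 7.40, 6.23 and 9.62, Npy2r 16.0, 12.5 and 13.7, and Npy5r 3.81, 2.38 and 2.74, so that the summed level of the 3 was 27.3, 21.1 and 26.1.

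GC content of the transcript moved with the PS19 Zbp1+/- differences over all genes. Between PS19 Zbp1+/- and PS19, the median difference ran from -0.17 in the lowest of 10 equal bins of GC content to 0.30 in the highest, while between PS19 and WT the bins lay between -0.10 and -0.003. Sstr1 and Sstr4, at 58.7% and 60.6% GC, fall in the highest bin, and Sstr3 and Cck, at 57.0% and 56.9%, in the next. Sstr2, at 53.1%, and Tacr3, at 44.8%, do not. After subtraction of the median within each of 10 by 5 bins of GC content and length, 16 of 37 genes were called higher in PS19 Zbp1+/- than in PS19, where 6.45% of all genes were, and 0 lower, where 13.4% were, and the median was 0.42. Between PS19 and WT, 4 of 36 were then called lower, against 1.28% of all genes, namely Cort, Sstr2, Cckbr and Crhr1, and the median was -0.20.

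**Figure D4:**
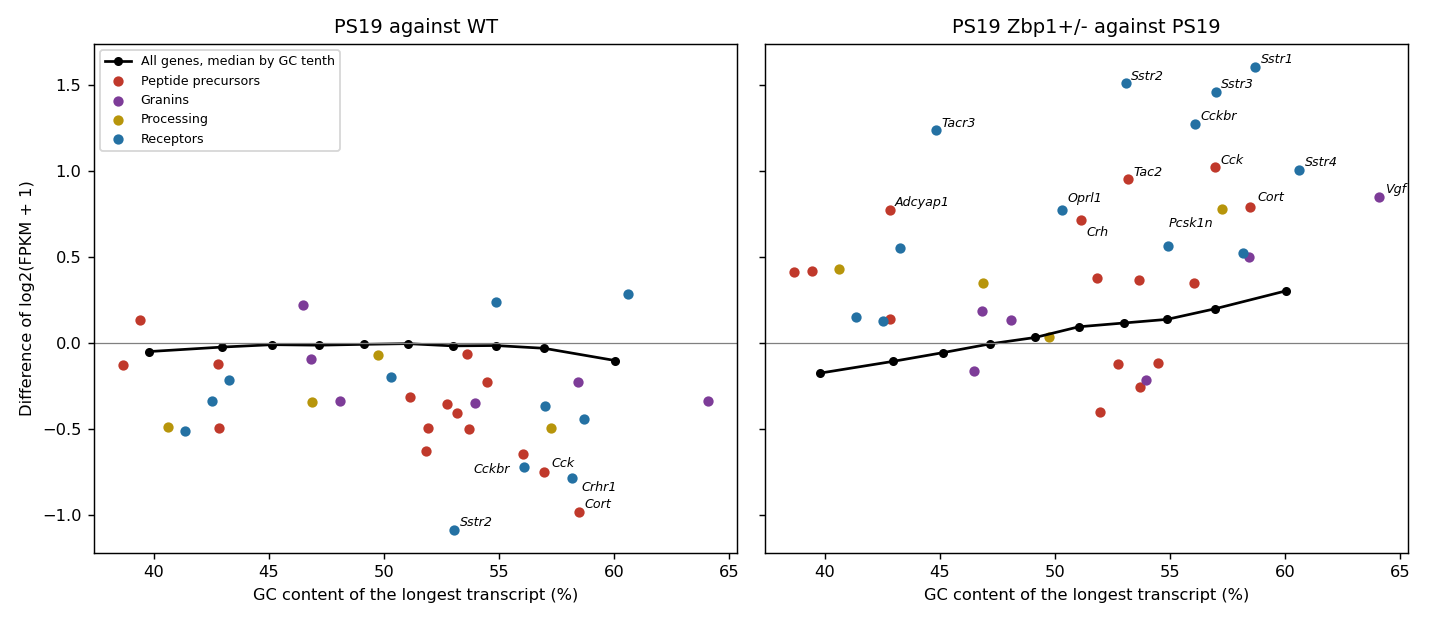
Difference of log2(FPKM + 1) against the GC content (%) of the longest transcript, for PS19 against WT and for PS19 Zbp1+/- against PS19. Coloured points are the peptide genes that entered, and the black line joins the medians of all genes in 10 bins of GC content, which run from -0.17 to 0.30 for PS19 Zbp1+/- against PS19. Sstr1, Sstr2, Sstr3, Cckbr and Tacr3 lie more than 1 unit above the line.

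Other peptide genes were followed in lists of 34 further precursors, 36 further receptors and 21 genes of dense-core vesicles and peptide maturation. For these lists and the marker lists below, the shares over all genes were 6.34% higher and 2.71% lower in PS19 against WT. They were 9.37% and 12.1% in PS19 Zbp1+/- against PS19, and 6.71% and 7.12% in PS19 Zbp1+/- against WT. Of the further precursors only 8 entered between PS19 and WT, 1 higher and 1 lower. Grp, which encodes gastrin-releasing peptide, had 308, 116 and 614 reads, and Avp, the vasopressin gene of the hypothalamus, had 18, 55 and 4. Of the further receptors, 7 of 18 were called higher and 1 lower in PS19 Zbp1+/- than in PS19, with a median of 0.39. The largest differences were those of the oxytocin receptor Oxtr at 1.20 (151, 102 and 314 reads), Vipr2 at -1.18 (20, 122 and 10 reads) and Mchr1 at 1.15 (343, 187 and 422 reads). Of the vesicle and maturation genes, 7 of 21 were called higher and 1 lower in that comparison, with a median of 0.28, led by Cadps2, a priming factor of dense-core vesicles, at 1.35. Between PS19 and WT 2 of the 21 were called higher and 0 lower, with a median of 0.03.

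Markers of the cells that make these peptides did not all share their order. Of 24 GABAergic interneuron markers, 1 was called higher and 3 lower in PS19 than in WT, with a median of 0.05, and their summed FPKM was 298, 302 and 356. In PS19 Zbp1+/- against PS19, 4 of 23 were called higher and 0 lower, with a median of 0.14. Calb2 had the largest difference of the list in both comparisons, at -1.62 and 1.77, followed in the second by Nos1 at 1.52 and Lhx6 at 0.96. Pan-neuronal markers had a median of -0.19 in PS19 against WT, with 0 of 14 called, and of 0.45 in PS19 Zbp1+/- against PS19, with 4 called higher. Pyramidal cell markers had medians of -0.20 and 0.14, with 1 of 14 called lower in the first comparison and 4 higher and 1 lower in the second, where the largest differences were those of Fibcd1 at 2.002, Mpped1 at 1.59 and Ccdc3 at -1.17. Of 20 activity-regulated genes 2 were called lower and 0 higher in PS19 than in WT, with a median of -0.37. In PS19 Zbp1+/- 2 were called higher and 2 lower against PS19, with a median of 0.06, and 1 higher and 3 lower against WT, with a median of -0.35.

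Genes of other cells moved as well. The summed FPKM of 12 microglia markers was 196, 708 and 208, that of 9 astrocyte markers 624, 1519 and 728, and that of 9 oligodendrocyte markers 914, 1633 and 593. The 10 choroid plexus markers summed to 3152, 1934 and 10.9, with 1 of them at 0 reads in PS19 Zbp1+/-. Of the thalamic, striatal and hypothalamic markers, 4 of 13 were called higher and 2 lower in PS19 than in WT, and 1 of 14 was called higher and 5 lower in PS19 Zbp1+/- than in PS19. Prkcd of the thalamus had differences on the log2(FPKM + 1) scale of 1.39 for PS19 less WT and -3.16 for PS19 Zbp1+/- less PS19. Calb2 is in this list and in that of interneurons. The part of tissue makeup in the differences of the peptide genes was not tested.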

How the data were processed

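The authors deposited 1 table of FPKM values, with gene names, positions, lengths and biotypes. The unit comes from the file's name and values. Trim Galore 0.6.5, STAR 2.5.3a, featureCounts 2.0.4 and build mm39 are named in the submitters' processing notes, yet 98.3% of the gene positions equal GENCODE M21 (GRCm38). Strandedness is not given in the sources used here. In each library, FPKM multiplied by gene length stepped by a fixed amount per read, and 100% of values came out whole (within 0.01 read). Library sizes implied by the steps were 17253479 (WT), 17287957 (PS19) and 15826984 (PS19 Zbp1+/-). They differ from the read totals, which were 16746085, 16400328 and 17109734 in the same order.

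Differences of log2(FPKM + 1) used protein-coding genes that reached FPKM 1 in one library or the other, and a call was 1.5-fold. With 1 library per genotype no test was run. A library with 0 reads was set to 3 reads, which gives a bound in place of a ratio, and no such bound is printed here. Where both libraries had 3 reads or fewer, no value was computed. The gene set and lists were chosen with earlier results of these data known, and so was the 1.5-fold threshold, where the earlier work used 2-fold. All 42 genes could be named. Those past 1.5-fold in any comparison and the most abundant of each role are described in full, and of each context list at most the 3 largest differences per comparison. Transcript GC content was read from GENCODE M21 (longest transcript) and promoters from RefSeq (GRCm38.p6). The calculations were checked on simulated reads. The scripts ran in Python 3.11.15 (scipy 1.17.1, pandas 2.3.3, numpy 2.4.6), with figures from matplotlib 3.10.9. Alternatives covered pseudocounts, filters, scaling, biotypes, the call threshold and GC content.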

Additional observations from a re-analysis of the deposited data

How the results depend on the processing

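No paired analysis was possible because each genotype had 1 library, and for the same reason no replicate could be left out. Of 29 called differences of single genes, 20 kept their call under TPM, 28 under scaling by total reads and 24 after the GC and length correction; none changed sign under any alternative run. The share over all genes at the same setting stands in brackets. Between PS19 and WT, 7 of 36 genes were lower as reported (2.71%) and 12 of 36 with a pseudocount of 0.1 (4.46%). With a mean FPKM of at least 5, 4 of 21 were lower (3.03%), and at 2-fold 1 of 36 (0.291%). With GC and length bins 4 of 36 were lower (1.28%), and the median of the peptide genes was -0.20 in place of -0.35. Between PS19 Zbp1+/- and PS19, 14 of 37 were higher as reported (9.37%) and 9 of 21 with a mean FPKM of at least 5 (11.7%). Under TPM 8 of 37 were higher (3.65%), and at 2-fold 7 of 37 (2.0%). In that comparison 0 of 37 were lower as reported (12.1%), 1 of 42 with no filter on low values (10.0%) and 1 of 37 under TPM (20.6%). The median there was 0.43 as reported, 0.20 under TPM and 0.28 under scaling by total reads. Between PS19 Zbp1+/- and WT, 6 of 37 were higher as reported (6.71%), and 10 of 37 with a pseudocount of 0.1 (10.1%) and of 0.5 (8.34%). With a mean FPKM of at least 5, 3 of 25 were higher (7.56%), and at 2-fold 3 of 37 (1.07%). There 2 were lower as reported, 1 with a mean FPKM of at least 5, 4 under TPM, 4 under scaling by total reads and 0 at 2-fold. A higher filter leaves fewer genes to count, and a higher threshold fewer calls, by construction; for the other changes the cause was not tested. Over all genes, 12.1% were called lower and 9.37% higher between PS19 Zbp1+/- and PS19 as deposited, and 20.6% and 3.65% under TPM.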
